A study of Mus musculus with 238 samples.

Results

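Transcripts of 7 transient receptor potential (TRP) channel genes were examined in bulk RNA of mouse brain: Trpm3, Trpm7, Trpv2, Trpv4, Trpc1, Trpc4 and Trpc6. They are 7 of the 21076 genes of the deposited count table and were taken by name. The members were chosen with earlier results of these libraries known, above all the plasma difference of Trpm3 and its variation between regions, so the plasma values and the regional levels of Trpm3 and Trpv4 are descriptions, and nothing is read from a count of calls that includes them. All mice were C57BL/6JN and 19 months old, and the labels name no transgene or deletion. In the diet experiment, 9 female mice were dietary restricted (aDR, 5 mice) or fed ad libitum (AL, 4 mice). In the plasma experiment, 7 male mice received retro-orbital injections of young mouse plasma (YMP, 3 mice) or of PBS, the saline buffer used as its control (4 mice). Each mouse gave up to 15 dissected brain regions, which made 131 diet and 98 plasma libraries, and the diet mice also gave 9 liver libraries, in which the restricted group carries the label DR. Sex went with the experiment, so the experiments are shown side by side and no difference between them is tested.

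TRP channels are cation channels of the plasma membrane or of organelles, built from several subunits, and they open to heat, stretch, osmotic change, lipids or the activation of phospholipase C. In brain, the canonical (TRPC) members respond to receptors coupled to phospholipase C, the vanilloid (TRPV) members to heat, stretch or lipids, and the melastatin (TRPM) members include steroid-gated, redox-gated and magnesium-conducting channels. Trpm3 and Trpv4 are known from the epithelium of the choroid plexus, the tissue inside the ventricles that makes cerebrospinal fluid, where TRPV4 takes part in the control of ion and water transport.

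Library totals ran from 605614 to 32410417 counts with a median of 8444258, and 6 of 238 libraries held under 2000000. Levels are CPM, counts scaled to the library total after TMM adjustment of the totals, which sets them on 1 scale over all libraries. The choroid plexus libraries held counts of all 12 epithelial markers (Ttr, Kcne2, Folr1 and others). Their summed level ran from 167 to 16244 CPM, and the 6 neuronal markers summed to 4229 to 7354 CPM in the same libraries, so plexus and neuronal transcripts were both present, in differing amounts. Ttr, the transthyretin gene and the most abundant plexus marker, also reached at least 1000 CPM in libraries of other regions, 34 of 229 brain libraries in all, and was under 10 CPM in 179. The share of libraries with at least 1000 CPM of Ttr was 7 of 58 in AL, 11 of 73 in aDR, 14 of 54 in PBS and 2 of 44 in YMP. In bulk tissue, fewer cells of a type and less RNA per cell cannot be told apart. The pons library of aDR mouse 67 was unlike the other brain libraries: 10 genes took up 23.4% of its counts, and 8.74% in the next highest.

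The regions just upstream of Trpm3 and Trpv4 are shown because these are the members whose levels moved together with the plexus markers. In the GENCODE annotation of GRCm38, Trpm3 lies at chr19:22139046-22995410, plus strand, and spans 856 kb with 24.4 kb of merged exons. Trpv4 lies at chr5:114622152-114658421, minus strand, and spans 36.3 kb with 4.08 kb of merged exons. The 250 bases before the RefSeq start (GRCm38.p6) are printed 5′ to 3′ on the strand of the gene, chr19:22138796-22139045 (plus strand) for Trpm3 and chr5:114658422-114658671 (minus strand) for Trpv4. Capitals mark the CCAAT box (CCAAT) in Trpm3 and the GC boxes (GGGCGG) in Trpv4.
Trpm3: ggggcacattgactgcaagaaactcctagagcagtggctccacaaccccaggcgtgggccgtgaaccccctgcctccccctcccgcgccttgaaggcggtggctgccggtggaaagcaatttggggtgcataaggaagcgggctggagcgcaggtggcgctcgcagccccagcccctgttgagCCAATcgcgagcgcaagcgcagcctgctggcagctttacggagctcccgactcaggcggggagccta
Trpv4: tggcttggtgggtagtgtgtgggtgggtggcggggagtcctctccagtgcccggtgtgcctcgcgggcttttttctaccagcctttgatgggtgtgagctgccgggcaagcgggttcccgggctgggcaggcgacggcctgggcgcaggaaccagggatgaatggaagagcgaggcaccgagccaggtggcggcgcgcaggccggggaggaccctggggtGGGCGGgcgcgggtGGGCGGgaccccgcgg
Both windows are rich in G and C (66.4% in Trpm3 and 72.0% in Trpv4). The CCAAT box of Trpm3 begins 67 bases before the start, and the GC boxes of Trpv4 begin 30 and 16 bases before it. On either strand, CCAAT occurs in 33.8% and GGGCGG in 32.7% of 32851 RefSeq windows of this length, so neither match is rare. TAATCC, the core bound by OTX2-type homeodomain factors of the plexus lineage, is in 6.25% of all windows and not in these letters. RefSeq gives Trpm3 a further start 309 kb downstream, inside the gene, and the counts do not separate the transcripts. Trpm3 also shares 351 exon bases with the lincRNA C330002G04Rik and 277 with the antisense gene Gm27151, both on the other strand, and since the libraries were unstranded, reads from those bases could not be assigned to a strand.

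Trpm3, a heat- and steroid-gated calcium channel, was found in all 229 brain libraries, from 18.8 to 353 CPM. In AL mice its highest mean was in cerebellum, at 173, 180.0, 194 and 223 CPM, a mean of 193 ± 22.2 CPM (SD, n = 4). Cerebellum of PBS mice gave 198, 208 and 227 CPM. Both groups lay above every olfactory bulb library, which held 113, 114, 119 and 120.0 CPM in AL and 112, 117, 118 and 126 CPM in PBS mice. Pons, medulla, anterior hippocampus, hypothalamus and thalamus averaged between 58.6 and 80.9 CPM in AL, and motor cortex, with 31.3 ± 2.16 CPM (SD, n = 4), was lowest. Choroid plexus, SVZ and corpus callosum were the regions with the widest spread between AL mice, with 73.3, 82.1, 179 and 278 CPM in choroid plexus, 56.1, 57.9, 137 and 147 CPM in SVZ and 19.8, 51.9 and 226 CPM in corpus callosum. In PBS mice choroid plexus (244 CPM), corpus callosum (227 CPM) and SVZ (211.1 CPM) had the highest means. Cerebellum came 4th there at 211.0 CPM, and entorhinal cortex was lowest at 33.7 CPM. The ranges of all 14 neighbouring pairs in the AL order overlapped, and 12 of 14 did in PBS.

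In the 179 brain libraries with under 10 CPM of Ttr, a subset taken after the values were seen, the order of the Trpm3 levels was clearer. The median was 185 CPM in cerebellum (range 163 to 227, n = 13), 114 CPM in olfactory bulb (96.3 to 126, n = 15) and 88.5 CPM in anterior hippocampus (53.4 to 112, n = 13). Cerebellum did not overlap with any other region in this subset. SVZ had 28.8 CPM (26.5 to 56.1, n = 5) and corpus callosum 22.5 CPM (18.8 to 26.8, n = 3), the lowest of the 14 regions present. In libraries with at least 1000 CPM of Ttr, Trpm3 ran from 128 to 353 CPM in SVZ (n = 9) and from 51.9 to 323 CPM in corpus callosum (n = 8). Of the libraries under 10 CPM of Ttr, 3 of the 5 in SVZ and 2 of the 3 in corpus callosum came from YMP mice. Ttr level and treatment therefore cannot be told apart here.

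Trpv4, an osmotically and mechanically gated calcium channel, was the least abundant member, with a median of 1.76 CPM over the brain libraries and at most 3 counts in 14 of 229. Choroid plexus libraries held 4.32, 6.59, 24.1 and 37.1 CPM in AL and 30.5, 32.5, 41.7 and 45.0 CPM in PBS mice. SVZ libraries held 1.47, 2.57, 21.0 and 23.0 CPM in AL and 8.42, 15.3, 40.5 and 85.5 CPM in PBS mice, and corpus callosum libraries 0.565, 8.66 and 50.7 CPM in AL and 16.7, 44.2 and 75.6 CPM in PBS mice. The other 12 regions averaged 1.01 to 5.72 CPM in AL and 0.954 to 6.18 CPM in PBS mice. The highest of these means rested on single libraries with Ttr: cerebellum of AL mouse 68 (18.6 CPM of Trpv4, 1815 CPM of Ttr) and caudate putamen of PBS mouse 76 (18.9 and 3279 CPM). Ranges of neighbouring regions overlapped in all 14 pairs of both orders, so neighbouring Trpv4 means are not resolved beyond the spread between mice. In PBS mice, choroid plexus (30.5 to 45.0 CPM) lay above every library of these 12 regions, at most 18.9 CPM. In AL mice it did not, with 4.32 CPM lowest in choroid plexus and 18.6 CPM highest in cerebellum.

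Trpv4 kept close to the plexus marker in every region that held it. Over the 34 libraries with at least 1000 CPM of Ttr, the level of Trpv4 per 1000 CPM of Ttr had a median of 4.87 and a range of 3.01 to 10.3, while Trpv4 itself ran from 6.83 to 85.5 CPM. By region the median was 4.54 in choroid plexus (n = 12), 5.38 in SVZ (n = 9) and 4.67 in corpus callosum (n = 8), with overlapping ranges. Trpm3 in the same libraries had a wider ratio, 11.3 to 123 CPM per 1000 CPM of Ttr, and the highest ratio was that of the cerebellum library. In the 179 libraries with under 10 CPM of Ttr, the regional medians of Trpv4 lay between 1.06 and 2.34 CPM. The exception among single libraries was the unlike pons library, at 16.8 CPM of Trpv4 with 0.790 CPM of Ttr. In the aDR pons libraries the sum of all plexus markers had a median of 35.1 CPM and reached 231 CPM.

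**Figure D1:**
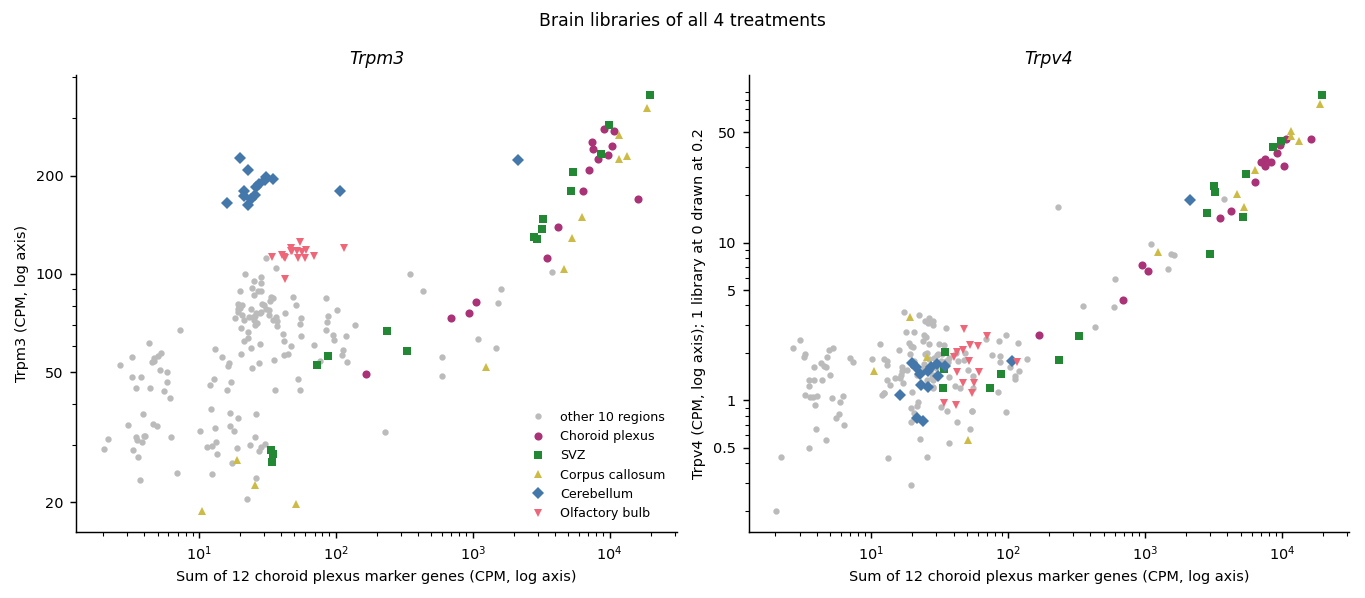
Level of Trpm3 (left) and Trpv4 (right) in CPM against the summed CPM of 12 choroid plexus marker genes, on log axes, with 1 point per brain library of all 4 treatments and colours for 5 regions. Above about 1000 CPM of markers both genes climb with the marker sum. Below it most Trpv4 points lie low, while Trpm3 separates by region. In the 179 libraries with under 10 CPM of Ttr, the median of Trpv4 was 1.58 CPM and Trpm3 in cerebellum was 163 to 227 CPM.

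Trpm7, a channel fused to a protein kinase that carries magnesium, zinc and calcium and is found in most cells, varied least between regions. The gene lies at chr2:126791565-126876230, minus strand. It was highest in cerebellum, with 65.0, 67.9, 69.8 and 69.9 CPM in AL and 69.2, 69.6 and 76.2 CPM in PBS mice. Both sets lay above the olfactory bulb, the next region, at 58.5 ± 2.80 CPM (SD, n = 4) in AL and 63.4 ± 3.14 CPM (SD, n = 4) in PBS mice. The lowest mean was in entorhinal cortex, 40.5 CPM in AL and 38.0 CPM in PBS mice, which made the span between the highest and lowest region 1.68-fold and 1.88-fold. The regions between these were only partly ordered, since 13 of 14 neighbouring pairs overlapped in AL and 12 of 14 in PBS. Regions further apart could be separate: anterior hippocampus in AL (48.2 to 59.8 CPM) lay above all medulla, thalamus and motor cortex libraries.

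Trpv2, a calcium channel of the vanilloid group, was highest in hypothalamus and thalamus. The gene lies at chr11:62574486-62600515, plus strand. Hypothalamus held 38.0, 39.6, 40.7 and 42.2 CPM in AL mice, above all thalamus libraries of that group (28.0, 33.8, 36.5 and 36.7 CPM). In PBS mice the regions overlapped, with 30.7, 34.3 and 40.2 CPM in hypothalamus and 33.1, 33.1, 35.9 and 39.0 CPM in thalamus, and the thalamus libraries lay above all libraries of visual, motor and entorhinal cortex. Visual and motor cortex followed at 29.7 and 29.3 CPM in AL. Olfactory bulb was lowest, with 7.91, 8.41, 9.23 and 10.01 CPM in AL and 8.89, 9.14, 9.36 and 12.03 CPM in PBS mice, and its AL range lay below that of caudate putamen.

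Trpc1, a subunit that joins other TRPC subunits, spanned 2.55-fold between regions in AL and 2.56-fold in PBS mice. The gene lies at chr9:95705082-95750375, minus strand. It was highest in caudate putamen, at 51.2, 55.9, 63.4 and 67.2 CPM in AL and 43.4, 55.7, 59.3 and 77.8 CPM in PBS mice, without standing clear of the regions below it. Pons, medulla and hypothalamus were lowest in both groups, with AL ranges of 25.2 to 29.0, 22.0 to 24.7 and 20.02 to 25.3 CPM.

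Trpc4 and Trpc6 encode subunits of receptor-operated channels, of which TRPC6 is gated by diacylglycerol. Trpc4 lies at chr3:54156035-54318471, plus strand, and Trpc6 at chr9:8544142-8680741, plus strand. Between the highest and lowest region Trpc4 spanned 24.6-fold in AL and 23.9-fold in PBS mice, and Trpc6 32.8-fold and 70.2-fold. In AL mice Trpc4 averaged 68.4 ± 13.03 CPM (SD, n = 4) in SVZ and 47.1 ± 13.2 CPM (SD, n = 4) in choroid plexus. Anterior hippocampus followed at 43.7 CPM, olfactory bulb at 43.1 CPM and posterior hippocampus at 39.8 CPM, against 2.10, 2.29, 3.06 and 3.66 CPM in cerebellum. Choroid plexus of PBS mice averaged 35.3 CPM, behind SVZ, olfactory bulb and posterior hippocampus. The spread within a region was wide: SVZ held 5.88, 51.7, 87.0 and 97.9 CPM in PBS mice, and entorhinal cortex 14.4, 45.1 and 59.3 CPM in AL mice. Olfactory bulb was the counter-example, with all 4 libraries between 39.4 and 45.0 CPM in AL mice.

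Trpc6 had its highest mean in anterior hippocampus in both sets of controls. The region held 27.5, 50.05, 50.1 and 55.8 CPM in AL mice, above all motor cortex libraries, the next region by mean, at 20.04, 23.7, 23.9 and 24.7 CPM. In PBS mice anterior hippocampus gave 29.6, 30.5, 33.7 and 74.0 CPM and posterior hippocampus 29.2, 40.1 and 40.3 CPM. These regions overlapped, and the higher anterior mean came with the library at 74.0 CPM. Medulla and cerebellum were lowest, at 1.40 and 1.44 CPM in AL. In pons, 12 of 15 libraries held 0.158 to 5.10 CPM of Trpc6, and 3 lay apart, AL mouse 68 at 22.2, aDR mouse 64 at 14.7 and YMP mouse 77 at 27.8 CPM. The same 3 had the highest Trpc4 levels of pons, 12.1, 5.93 and 11.1 CPM, though aDR mouse 64 stood little above the next library at 5.67 CPM.

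**Figure D2:**
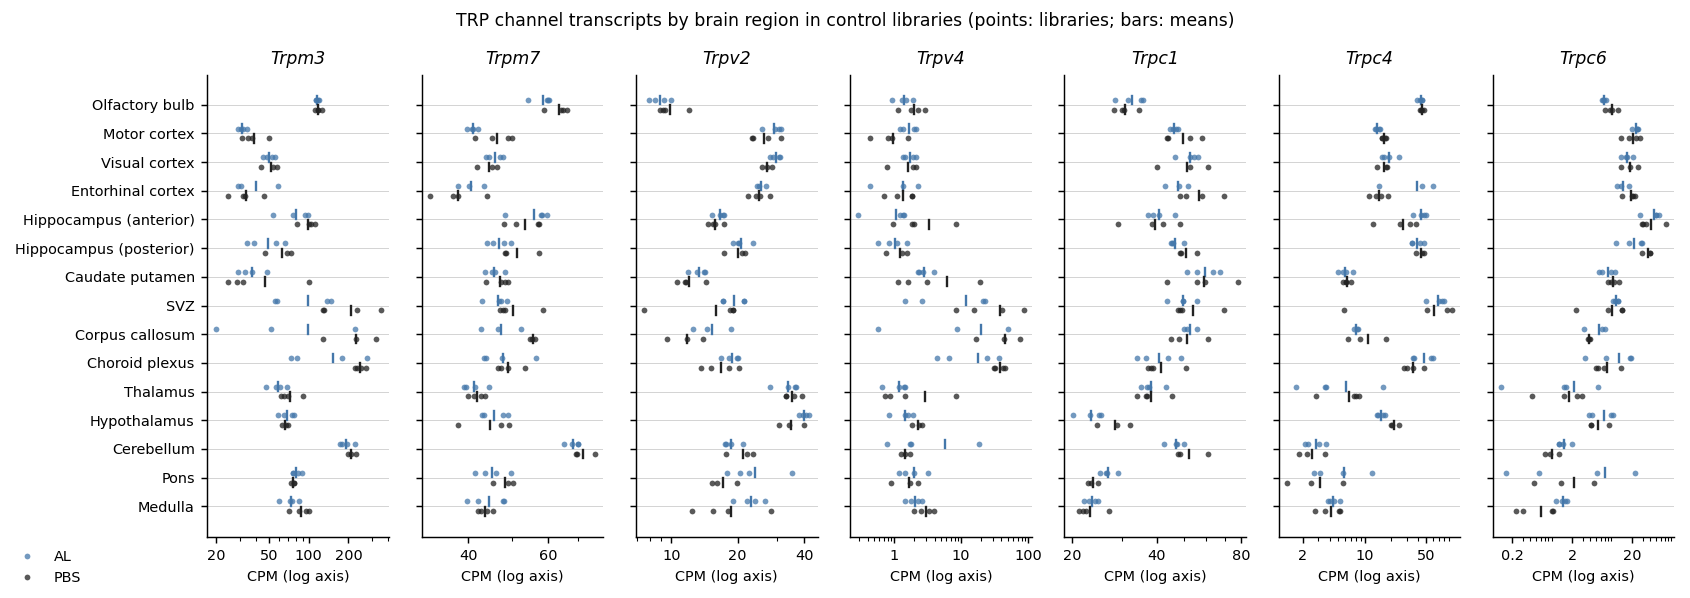
Level of each of the 7 genes in CPM (log axis) in 15 brain regions, with 1 point per library of the AL (blue) and PBS (black) mice and a bar at each mean. Trpv4 stands out in choroid plexus, SVZ and corpus callosum with points spread over a wide interval, and Trpm7 spans 1.68-fold between regions in AL. Trpc6 has its highest mean in anterior hippocampus in both groups, with overlap with posterior hippocampus in PBS.

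The regional order was alike in both sets of controls, which share neither mice nor sex. Over the 15 regions, Pearson's r of mean log2 CPM between AL and PBS was 0.97 for Trpc6, 0.96 for Trpc1, 0.94 for Trpc4 and Trpv2, 0.93 for Trpv4, 0.91 for Trpm7 and 0.84 for Trpm3. Spearman's rho was 0.60 for Trpv4, whose levels outside choroid plexus, SVZ and corpus callosum lay close together, and 0.86 to 0.96 for the others. Per kb of merged exon, the median level over the regions in AL mice was 5.75 CPM for Trpc1, 4.6 for Trpv2, 4.05 for Trpm7, 2.98 for Trpm3, 1.89 for Trpc4, 1.53 for Trpc6 and 0.419 for Trpv4. Trpm3 came behind Trpc1, Trpv2 and Trpm7 by this measure, with the longest merged exons of the 7 genes, and Trpv4 last. Merged exons pool all annotated transcripts, 24.4 kb for Trpm3 against a longest coding sequence of 5193 bases, so this order need not hold for another length.

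The genes most like each member were taken by Pearson's r of mean log2 CPM over the 15 regions in AL mice, among 15355 genes. Regions of the same mice share libraries and depth, and r over so few points is a description. For Trpv4 the 5 closest were Ttr (r = 0.98, in PBS 0.99), Kcne2 (r = 0.97, in PBS 0.99), Slc16a8 (r = 0.97, in PBS 0.99), Cldn2 (r = 0.97, in PBS 0.99) and Tmem72 (r = 0.97, in PBS 0.99). Of these, Ttr, Kcne2, Cldn2 and Tmem72 belong to the 12 plexus markers, and Slc16a8 encodes a lactate transporter. For Trpm3 they were St5 (r = 0.89, in PBS 0.92), Clec3b (r = 0.87, in PBS 0.64), Vim (r = 0.87, in PBS 0.84), Tyms (r = 0.86, in PBS 0.50) and Cflar (r = 0.85, in PBS 0.86). Clec3b and Tyms followed Trpm3 less closely in PBS than in AL mice, while St5, Vim and Cflar had a similar r in both. For the other members the 2 closest were Atad2b and Gabpb2 for Trpm7, Snx16 and Hrh1 for Trpv2, Braf and Rab40c for Trpc1, Matn2 and Hspa2 for Trpc4 and Zfp251 and Emx2 for Trpc6, with r between 0.90 and 0.96 in AL and 0.77 and 0.91 in PBS. Among the members themselves, r was 0.77 in AL and 0.65 in PBS for Trpm3 with Trpm7, the highest pair in AL. It was 0.75 and 0.72 for Trpc4 with Trpc6, the highest pair in PBS, and 0.40 and 0.71 for Trpm3 with Trpv4.

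In liver, Trpm7 and Trpv2 passed the filter on low counts. AL livers held 79.6, 85.5, 99.5 and 142 CPM and DR livers 97.9, 101, 114, 158 and 165 CPM of Trpm7, and the ranges overlapped. These levels depend on the scaling: with plain library totals the means were 56.6 and 69.2 CPM in place of 102 and 127, so no order against brain is read from them. Trpv2 averaged 4.37 ± 1.51 CPM (SD, n = 4) in AL and 3.43 ± 1.94 CPM (SD, n = 5) in DR mice. Trpc6 had 0 counts in all 9 livers. In a single library, 0 counts would also be possible at a level worth up to 3 counts, and 0 in all 9 allows only a lower level. Trpc4 had at most 1 count in any liver and Trpm3 at most 6.

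Of 21 other TRP family genes, all in the table, the highest by CPM, a level not corrected for length, in control brain outside choroid plexus were Mcoln1, the lysosomal channel mucolipin (67.6 CPM), and Pkd2, polycystin of the primary cilium (46.5 CPM), as the mean of the AL and PBS region means. In choroid plexus the 3 highest were Mcoln1 (70.9 CPM), Pkd2 (42.1 CPM) and Trpm2, a redox-sensitive channel (31.7 CPM), and the same 3 led in AL liver (55.9, 31.4 and 14.9 CPM).

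The comparison of aDR with AL mice asks where in the brain restriction changes expression. Within brain regions, 0 of the 7 genes was called in any region at an adjusted p under 0.05 (edgeR quasi-likelihood test, Benjamini-Hochberg over all genes tested). The members gave 104 tests, 7 of them with an unadjusted p under 0.05, 6.73% against 6.24% of the tests of all genes, and the untested pair was Trpv4 in motor cortex, which the filter on low counts removed. DESeq2 also called 0. Few genes of any kind were called: 0.251% in motor cortex, 0.22% in olfactory bulb, 0.202% in visual cortex, 0.0524% in cerebellum, 0.0215% in corpus callosum, 0.0212% in SVZ, 0.0146% in caudate putamen, 0.00714% in medulla and 0.00707% in choroid plexus of the genes tested, and 0% in entorhinal cortex, anterior hippocampus, posterior hippocampus, hypothalamus, pons and thalamus, where edgeR gave 222 to 639 genes an unadjusted p under 0.05. The members' share of small p was close to that of all genes.

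Trpm7 came nearest to a call. In olfactory bulb it was 54.3, 59.6, 59.9 and 60.3 CPM in AL and 62.8, 63.5, 67.7, 69.9 and 70.3 CPM in aDR mice, without overlap, as for 5.3% of all genes tested there. The log2 change was 0.19 (SE 0.056), with an edgeR p of 0.00429 and an adjusted p of 0.202. Motor cortex gave 39.8, 40.7, 41.0 and 42.2 CPM in AL and 42.1, 44.5, 46.7, 49.1 and 49.4 CPM in aDR mice, a log2 difference of 0.19 (SE 0.064, edgeR adjusted p 0.284), with 1 aDR library inside the AL range. The change of Trpm7 was above 0 in 11 of 15 regions and between -0.067 and 0.22.

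Trpc4 in motor cortex was the other of the 104 member tests in which the diet groups did not overlap, 2 in all, where 3.07% of the tests of all genes had groups without overlap (3.81% in motor cortex). AL mice held 12.99, 13.6, 14.4 and 14.9 CPM and aDR mice 15.6, 16.7, 17.3, 17.7 and 18.0 CPM, a log2 difference of 0.28 (SE 0.088, edgeR p 0.00585, adjusted p 0.264). Its change was below 0 in 11 of 15 regions, so motor cortex was one of the 4 regions on the other side. Trpc1 in caudate putamen was 51.2, 55.9, 63.4 and 67.2 CPM in AL and 40.1, 47.5, 50.7, 52.1 and 53.7 CPM in aDR mice, with overlap, a log2 difference of -0.27 (SE 0.11, edgeR adjusted p 0.618). Trpv2 lay between -0.36 and 0.14 and Trpc6 between -1.32 and 0.57 over the regions, with the smallest adjusted p at 0.644 and 0.514.

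Trpm3 did not separate the diets in any region (smallest edgeR adjusted p 0.564). In the regions with plexus markers the aDR values were 75.8, 112, 139, 241 and 253 CPM in choroid plexus, 28.1, 66.6, 179, 205 and 286 CPM in SVZ and 26.8, 103, 149 and 266 CPM in corpus callosum. They overlapped with the AL values given above, and so did the plexus marker sums, at 88.1 to 3245 CPM in AL and 34.6 to 9898 CPM in aDR libraries of SVZ. The log2 changes were 0.10 (SE 0.45) in choroid plexus, 0.64 (SE 0.60) in SVZ and 0.44 (SE 0.86) in corpus callosum. Their sign turned in choroid plexus and corpus callosum when single mice were left out, to -0.13 without AL mouse 66 and -0.13 without aDR mouse 61. Trpv4 overlapped between the diets too, with aDR values of 7.24, 14.3, 15.9, 30.4 and 34.0 CPM in choroid plexus and 1.81, 2.04, 14.6, 27.1 and 44.1 CPM in SVZ. Its cerebellar change of -1.94 (SE 0.82, edgeR adjusted p 0.332) came with the AL library at 18.6 CPM that held Ttr, while the other 3 AL libraries lay at 0.778 to 1.78 CPM and the aDR libraries at 0.737 to 1.66 CPM. Without AL mouse 68 the difference was 0.032. In pons, Trpv4 was 1.19, 1.42, 1.96 and 3.17 CPM in AL and 1.70, 1.71, 1.78, 3.17 and 16.8 CPM in aDR mice, and the highest value was that of the unlike library of mouse 67. The log2 difference was 1.32 (SE 0.79, edgeR adjusted p 0.997) with it and 0.10 without it.

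Over the brain as a whole, with 1 value per mouse (limma), 0 of 7 members was called for diet, where 0.922% of all genes tested were. None of the 7 had an unadjusted limma p under 0.05, against 2511 of 15616 genes. The log2 changes were 0.27 for Trpv4 (SE 0.19), -0.19 for Trpc4 (SE 0.097), -0.17 for Trpc6 (SE 0.16) and between -0.053 and 0.071 for the others, with limma adjusted p between 0.377 and 0.857. The median of the members was -0.05 and that of all genes -0.0062. Trpv4 was 0.67, 1.47, 1.55 and 1.61 in the AL mice and 1.44, 1.47, 1.58, 1.61 and 1.86 in the aDR mice (log2 CPM), with overlap as for all 7 members (8.3% of all genes had none), and without AL mouse 63 its change was 0.038. In the test of whether the diet change differs between regions, 0 of 7 members and 0.0128% of all genes were called (edgeR). In that test 0 members had an unadjusted p under 0.05, against 335 of 15616 genes. In liver, 0 of the 2 members that passed the filter was called by edgeR or DESeq2, where edgeR called 0.22% of all genes. Neither member had an unadjusted edgeR p under 0.05, against 1074 of 11815 genes. Trpm7 gave a log2 difference of 0.35 (SE 0.23, edgeR adjusted p 0.735) and Trpv2 one of -0.36 (SE 0.44, edgeR adjusted p 0.915). Of the 21 other TRP genes, 0 rose and 0 fell in 155 edgeR tests within brain regions, and 6 of the tests had an unadjusted p under 0.05.

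The comparison of YMP with PBS mice asks where in the brain plasma of young mice changes expression. The values of Trpm3 and Trpv4 were lower in YMP than in PBS libraries of SVZ and corpus callosum, and the choroid plexus markers were lower there too. In SVZ, Trpm3 was 128, 130.2, 234 and 353 CPM in PBS and 26.5, 28.8 and 52.6 CPM in YMP mice. Trpv4 was 8.42, 15.3, 40.5 and 85.5 CPM and 1.2, 1.2 and 1.59 CPM in the same libraries. Neither pair of groups overlapped, which held for 14.6% of all genes tested in SVZ. The log2 change was -2.60 (SE 0.46) for Trpm3 and -4.91 (SE 0.92) for Trpv4.

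In corpus callosum, Trpm3 was 129, 229.6 and 323 CPM in the 3 PBS and 18.8 and 22.5 CPM in the 2 YMP libraries, and Trpv4 16.7, 44.2 and 75.6 CPM against 1.54 and 1.88 CPM. The log2 changes were -3.51 (SE 0.40) and -4.76 (SE 0.70).

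In choroid plexus itself Trpm3 did not overlap, as for 6.19% of all genes tested there, and Trpv4 did. Trpm3 was 226, 231, 247 and 273 CPM in PBS and 49.4, 170.1 and 209 CPM in YMP mice, and Trpv4 30.5, 32.5, 41.7 and 45.0 CPM and 2.61, 32.5 and 45.3 CPM. The lowest YMP value of both genes was that of mouse 73, whose library held 127 CPM of Ttr against 15031 and 6199.8 CPM in the other 2. The log2 change was -0.78 (SE 0.42) for Trpm3 and -0.50 (SE 0.71) for Trpv4, and without mouse 73 it was -0.37 and 0.053.

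**Figure D3:**
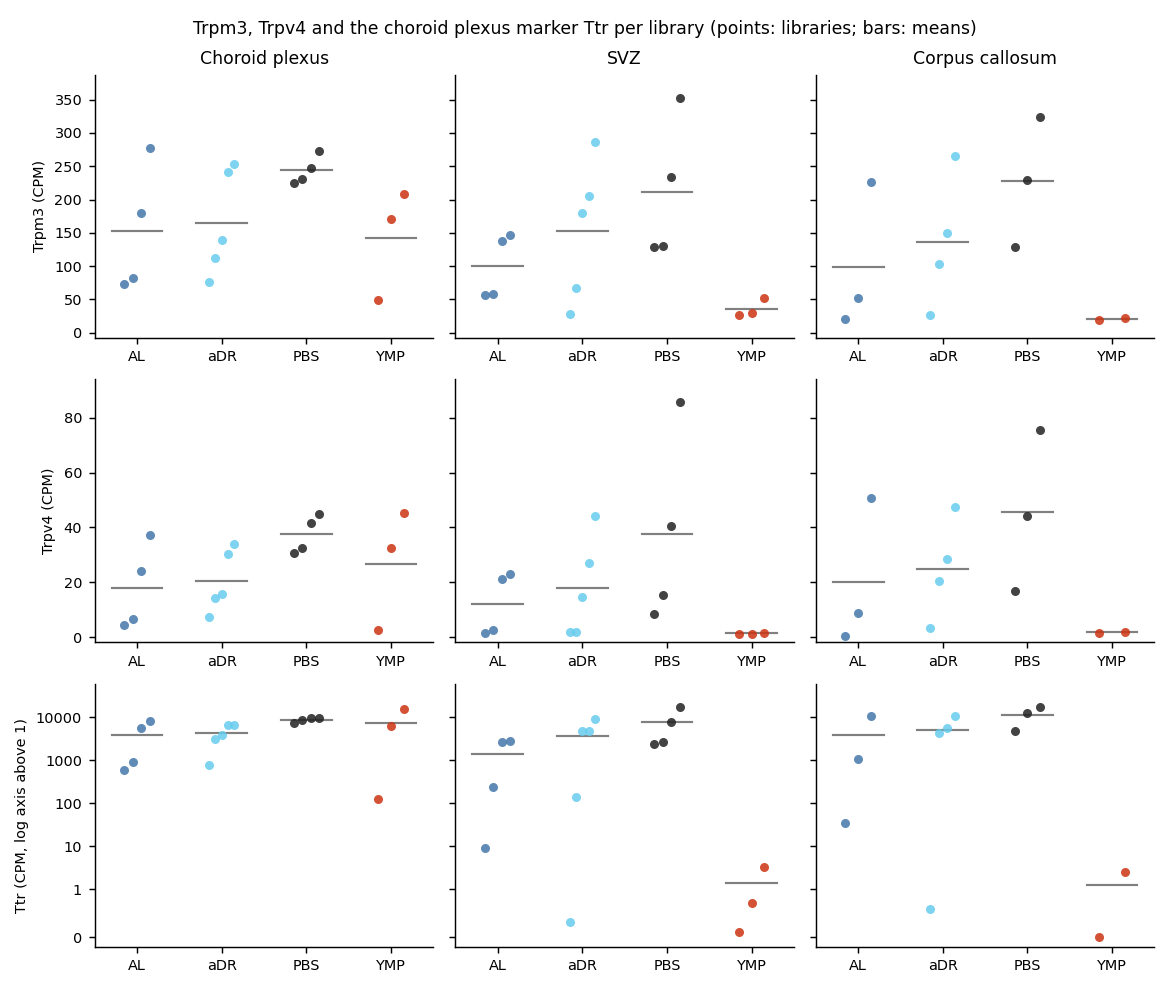
Levels of Trpm3, Trpv4 (CPM) and Ttr (CPM, log axis above 1) in choroid plexus, SVZ and corpus callosum, with 1 point per library by treatment and a bar at each mean. In SVZ and corpus callosum the YMP points of all 3 genes lie below all PBS points, while the AL and aDR points spread from low to high levels, and in choroid plexus the YMP points lie below the PBS points for Trpm3 and on both sides of them for Trpv4 and Ttr.

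The plexus markers moved with these differences. Their sum was 2824 to 19661 CPM in PBS and 33.6 to 73.3 CPM in YMP libraries of SVZ, and 5305 to 18909 CPM against 10.6 to 25.6 CPM in corpus callosum, where Aqp1 was at 0 in both YMP libraries. Of the 12 markers, 8 had a count in every YMP library of SVZ and 5 in both of corpus callosum. In choroid plexus the sum was 8285 to 10802 CPM in PBS and 167 to 16244 CPM in YMP mice. The 8 meningeal fibroblast markers summed to 61.4 to 172 CPM in PBS and 23.2 to 28.2 CPM in YMP libraries of SVZ, and the 6 ependymal markers to 188 to 236 and 191 to 221 CPM. In corpus callosum the fibroblast sums were 54.9 to 171 and 17.5 to 19.7 CPM. Ependymal sums overlapped and fibroblast sums did not. Astrocyte markers did not overlap either, at 2506 to 3263 CPM in PBS and 2409 to 2468 CPM in YMP libraries of SVZ and, the other way round, 2417 to 2526 and 2729.8 to 2914 CPM in corpus callosum. In corpus callosum the oligodendrocyte markers, at 20244 to 22298 and 29911 to 31445 CPM, and the microglial markers, at 323 to 333 and 407 to 428 CPM, were also higher in the YMP libraries without overlap. Of all single genes tested, 24.8% in corpus callosum (2 YMP and 3 PBS libraries) and 14.6% in SVZ had groups without overlap. The part of these markers in the lower Trpm3 and Trpv4 was not tested.

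Of 100 tests of members within brain regions, 1 was called for plasma, Trpm3 in corpus callosum (edgeR), a result known when the members were chosen and from which nothing is read. The call was lost without PBS mouse 80, YMP mouse 77 or YMP mouse 81. An unadjusted p under 0.05 was found for 11 of these tests, 11% against 6.11% of all tests, and 7 of the 11 were those of Trpm3 or Trpv4. The groups did not overlap in 15 of the 100 tests, where 9.34% of the tests of all genes had no overlap. Without Trpm3 and Trpv4 it was 7 of 73 tests, or 9.59%, which is near the share of all genes. Of all genes tested, 0.184% were called in corpus callosum, 0.00738% in cerebellum and 0% in each of the other 13 regions, where edgeR gave 150 to 1910 genes an unadjusted p under 0.05.

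Outside choroid plexus, SVZ and corpus callosum, the plasma change of Trpm3 was below 0 in 8 of 12 regions, from -0.80 in caudate putamen, where PBS mouse 76 held 101 CPM beside 3279 CPM of Ttr, to 0.19 in posterior hippocampus. In cerebellum, where Ttr was under 10 CPM in all libraries of this experiment, Trpm3 was 198, 208 and 227 CPM in PBS and 165, 179 and 185 CPM in YMP mice, a log2 difference of -0.25 (SE 0.076). The fibroblast markers did not overlap there either, at 85.1 to 98.8 CPM in PBS and 52.0 to 66.6 CPM in YMP libraries, nor did Ttr, at 0.560 to 0.784 and 0 to 0.111 CPM, and 16.3% of all genes had groups without overlap. In motor cortex Trpm3 was 31.3, 34.8, 37.1 and 50.2 CPM and 23.3, 27.5 and 29.0 CPM, also without overlap, a change of -0.55 (SE 0.17). There 4.97% of all genes had groups without overlap, fibroblast sums overlapped and Ttr was at most 0.740 CPM. The part of these markers was not tested. Trpv4 passed the filter in 9 of these 12 regions, and its change ran from -1.29 to 0.75, below 0 in 7. Medulla was the one among them without overlap, with 2.01, 2.51, 3.30 and 3.97 CPM in PBS and 1.55, 1.6 and 2.0 CPM in YMP mice, a region where 8.07% of all genes had none. Ttr was 3.70, 5.11, 17.8 and 288 CPM and 0.462, 0.728 and 1.96 CPM in these libraries, and the plexus sum 25.4 to 350.0 and 25.3 to 29.8 CPM.

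The members other than Trpm3 and Trpv4 had 0 called plasma changes, by edgeR, with 4 unadjusted p under 0.05. Trpc4 had the largest of those 4, in entorhinal cortex, with 11.2, 13.3, 15.4 and 18.4 CPM in PBS and 13.6, 26.9 and 76.2 CPM in YMP mice, a log2 difference of 1.42 (SE 0.49, edgeR adjusted p 0.910). The groups overlapped, the highest value was that of YMP mouse 81, and without this mouse the difference was 0.45. In anterior hippocampus Trpc4 was 12.5, 25.4, 33.1 and 38.3 CPM in PBS and 43.2, 45.7 and 52.7 CPM in YMP mice, without overlap, a change of 0.84 (SE 0.31, edgeR adjusted p 0.683). In that region 6.15% of all genes had groups without overlap. Trpc6 was 0.713, 0.840 and 1.18 CPM in PBS and 1.33, 1.5 and 1.89 CPM in YMP cerebellum, a change of 0.82 (SE 0.32, edgeR adjusted p 0.456) at a level near the lowest of any region. In olfactory bulb Trpc6 was 7.12, 8.44, 9.23 and 11.4 CPM and 4.55, 6.49 and 6.94 CPM, a change of -0.44 (edgeR adjusted p 0.563).

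Trpm7, Trpv2 and Trpc1 gave the narrowest plasma changes. Over the 15 regions they lay between -0.30 and 0.13 for Trpm7, -0.27 and 0.27 for Trpv2, and -0.24 and 0.19 for Trpc1, with the smallest edgeR adjusted p at 0.588, 0.501 and 0.700. The smallest unadjusted p of these 3 genes was 0.0523. Trpm7 was lower without overlap in YMP corpus callosum, at 44.9 and 48.4 CPM against 54.7, 55.4 and 56.3 CPM in PBS mice, and in cerebellum, at 65.6, 65.8 and 66.5 against 69.2, 69.6 and 76.2 CPM. Trpc1 was lower without overlap in posterior hippocampus, at 41.0, 42.0 and 46.2 CPM against 48.5, 48.8 and 55.7 CPM. In these 3 regions 24.8%, 16.3% and 6.15% of all genes had groups without overlap. Of the 21 other TRP genes, 0 rose and 0 fell in 157 edgeR tests within brain regions, of which 10 had an unadjusted p under 0.05.

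**Figure D4:**
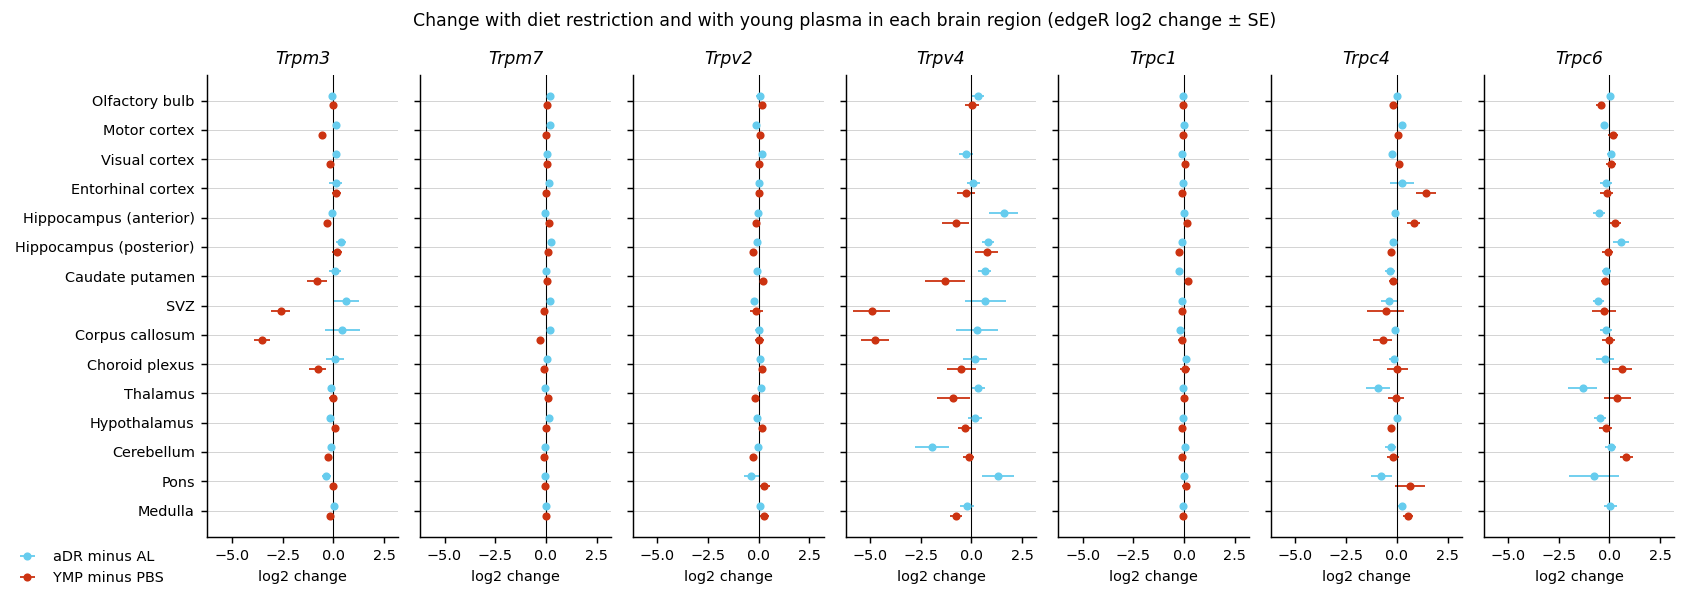
Change of each member in each brain region on the log2 scale, restricted minus freely fed in light blue and young plasma minus PBS in red, as the edgeR estimate with its SE, where a member passed the filter. The plasma points of Trpm3 and Trpv4 in SVZ and corpus callosum lie between -2.60 and -4.91, while Trpm7, Trpv2 and Trpc1 lie between -0.36 and 0.27 in both experiments.

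With 1 value per mouse over the brain regions (limma), 0 of 7 members and 0% of all genes were called for plasma, while 1275 genes had an unadjusted p under 0.05, with Trpm3 and Trpv4 the only members among them, from which nothing is read. Trpm3 was 6.36, 6.42, 6.56 and 6.61 in PBS and 5.88, 5.90 and 6.09 in YMP mice (log2 CPM), a difference of -0.53 (SE 0.082). Trpv4 was 1.61, 1.77, 1.91 and 2.07 and 0.91, 1.01 and 1.13, a difference of -0.83 (SE 0.11). The mice of the groups did not overlap for either gene, which held for 10.1% of all genes. Without choroid plexus, SVZ and corpus callosum, the differences were -0.14 for Trpm3 and -0.27 for Trpv4. The other 5 members differed by 0.0053 to 0.16, with limma adjusted p of at least 0.813, and their groups overlapped.

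**Figure D5:**
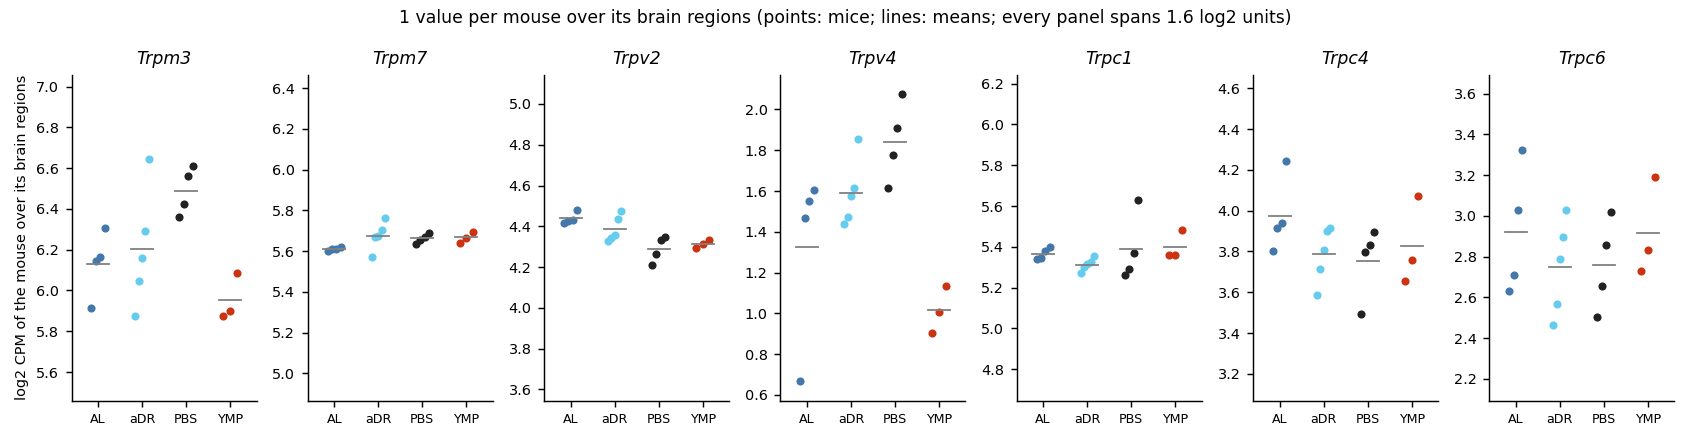
Level of each member per mouse over its brain regions (log2 CPM), with 1 point per mouse in the 4 treatments and a line at each mean, every panel spanning the same number of log2 units. The YMP points of Trpm3 and Trpv4 lie below the PBS points by 0.535 and 0.827 on average, AL mouse 63 lies apart for Trpv4, and the remaining panels show overlapping groups.

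Whether the plasma change differs between regions was tested with the region by treatment terms of 1 edgeR fit over the 98 libraries. It called 0.786% of all genes, 2 of the 7 members among them, Trpm3 and Trpv4, whose variation between regions was known when they were chosen, so nothing is read from that count. Without choroid plexus, SVZ and corpus callosum the same fit called 0 members and 0 of 15404 genes, with 874 at an unadjusted p under 0.05, and without YMP mouse 77 or YMP mouse 81 it called 1 member. For the other 5 members the edgeR adjusted p was 1 and the smallest unadjusted p 0.304, so no difference of their plasma change between regions was detected.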

How the data were processed

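RNA of 15 dissected brain regions, and of liver for the diet mice, was made into Smart-Seq2 cDNA and unstranded libraries, per the labels' protocols. The authors deposited raw counts per gene. The submitters' processing notes name Trim Galore 0.3.7, STAR 2.5.3a, DESeq2 and the build GRCm38, while the counting program and its annotation are not given in the sources used here. The 7 members and all gene lists were chosen with earlier results of these data known.

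Counts were fitted over the whole table for each region with edgeR 4.0.16 in R 4.3.3 (quasi-likelihood test, TMM scaling, low counts removed by filterByExpr, whose minimum was 10 per library and 15 in total), with Benjamini-Hochberg adjustment over all genes tested and a call at an adjusted p under 0.05. SE is the absolute log2 change divided by the square root of F. Over the brain, limma 3.58.1 compared 1 value per mouse, taken as its mouse term after regression of log2 CPM on region, with a prior count of 2. Whether a change differed between regions was tested with the region by treatment terms in edgeR. Printed CPM are scaled by TMM over all 238 libraries. The fits were tested on simulated data first. DESeq2 1.42.0, other scalings, filters and priors, and leaving out mice, regions or libraries under 2000000 counts were the alternatives.

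Mouse numbers mark the animal across regions and never pair treatments. Deviations from group means correlated at 0.049 within and -0.013 between mice for diet, and at 0.14 and -0.054 for plasma. The lowest chi-square per degree of freedom between 2 libraries of a group was 1.29 over 357 pairs. No library was therefore a copy of another of its own group within sampling noise, and libraries of different groups were not compared. The labels name no batch. Members are always named; of the other TRP genes, those called and the 3 with the highest mean CPM in choroid plexus, the other brain regions and liver; and the genes nearest in regional pattern, 5 for Trpm3 and Trpv4 and 2 for the others. Of the genes this rule takes, 1 is not reported here.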

Additional observations from a re-analysis of the deposited data

Results flagged for a closer look

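Groups of 4 or 5 values were examined for Trpm3 and Trpv4 within regions, and for every member with 1 value per mouse. The other members were not examined within regions. Of the 95 groups, 11 held a value far from the others of its group. Chance alone would give 1 in 20, here 4.75, if values were normal and groups independent, but Trpm3 and Trpv4 were read in the same libraries. Several of the 11 were libraries that also held Ttr. Trpv4 was 18.9 CPM in caudate putamen of PBS mouse 76 (others 1.12 to 3.11), where Trpm3 was 101 CPM (others 24.4 to 31.7) and Ttr 3279 CPM. The same mouse had 8.45 CPM of Trpv4 in anterior hippocampus (others 0.973 to 1.96) beside 1354 CPM of Ttr. Trpv4 was 18.6 CPM in cerebellum of AL mouse 68 (others 0.778 to 1.78, Ttr 1815 CPM), 8.30 CPM in thalamus of PBS mouse 72 (others 0.733 to 1.43, Ttr 1359 CPM) and 9.73 CPM in anterior hippocampus of aDR mouse 64 (others 0.890 to 1.86, Ttr 936 CPM).

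Other libraries stood apart without Ttr. Trpv4 was 16.8 CPM in pons of aDR mouse 67 (others 1.70 to 3.17) with 0.790 CPM of Ttr and 603 CPM of fibroblast markers, the brain library with the highest share of counts in 10 genes. Trpm3 was 44.7 CPM in motor cortex of aDR mouse 61 (others 31.0 to 34.5). Low values were 0.290 CPM of Trpv4 in anterior hippocampus of AL mouse 63 (others 1.21 to 1.40) and 0.737 CPM in cerebellum of aDR mouse 64 (others 1.48 to 1.66), which rest on 2 and 5 counts. Over its brain regions, AL mouse 63 had 0.669 log2 CPM of Trpv4, against 1.47 to 1.61 in the other AL mice.

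The plasma change of Trpm3 ran from -3.51 on the log2 scale in corpus callosum to 0.19, and that of Trpv4 from -4.91 in SVZ to 0.75. Both passed the threshold for the region by treatment terms, but the members were chosen with this variation known, so the outcome is a description and supports nothing.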

How the results depend on the processing

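The counts of 0 members called for diet, within regions, over the brain, by region and in liver, did not move under any alternative run. For plasma within regions, 1 member and region pair was called, against 4 with DESeq2, 4 with 1 edgeR fit over all regions, 2 with no filter on low counts and 0 to 3 when single mice were left out, all of them Trpm3 or Trpv4. It was 0 without PBS mouse 80, YMP mouse 77 or YMP mouse 81 and 3 without PBS mouse 72. Over the brain the plasma count of 0 became 1 in voom with the mice as a replicate block. By region the plasma count was 2, also with mouse as a replicate block, and became 1 without corpus callosum, 1 without choroid plexus and corpus callosum, 0 without these and SVZ (an alternative chosen after seeing the data), and 1 to 2 when single mice were left out.

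Of the log2 changes recomputed, 331 kept their direction and side of the threshold, 28 turned sign, 12 passed the threshold newly and 3 lost it. The diet change of Trpm3 over the brain, 0.071, was -0.0052 without choroid plexus, SVZ and corpus callosum and -0.0419 to 0.153 when single mice were left out. With single mice left out it was -0.128 to 0.54 in choroid plexus and -0.129 to 1.83 in corpus callosum, and that of Trpv4 was -0.112 to 0.75 in choroid plexus, -0.26 to 2.07 in corpus callosum and -0.0503 to 1.23 in SVZ. The plasma changes over the brain were -0.00967 to 0.0189 for Trpm7, -0.000954 to 0.0439 for Trpv2, -0.0283 to 0.0903 for Trpc1 and -0.0569 to 0.174 for Trpc4, and that of Trpv4 in choroid plexus was -1.15 to 0.0535. Trpc1 also changed sign without libraries under 2000000 counts, at -0.0025. The cause was not tested.

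With plain library totals the mean CPM of Trpm7 was 74.0 in AL and 76.8 in PBS cerebellum, and that of Trpv2 43.7 in AL hypothalamus. Depth limits Trpv4 and Trpc6, which had at most 3 counts in 14 and 13 of 229 brain libraries.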
